A study of Mus musculus with 2 samples.

Results

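Among single-cell transcriptomes of CD45+ cells sorted from mouse tumours, a small set of barcodes was led by Rhox5, an X-linked homeobox gene that few normal adult tissues outside the reproductive tract transcribe. They are called Rhox5 barcodes here, although 3 of them had no Rhox5 UMI. They were chosen on raw counts of unique molecular identifiers (UMIs) of Rhox5, Tm4sf1, Sparc and Col3a1. A barcode entered with at least 200 genes, at most 10% of UMIs from mitochondrial genes, at least 5 UMIs summed over the 4 genes, and a UMI of at least 2 of them. Of 36259 barcodes that passed the first pair of limits, 174 met the rule: 19 of 20415 in the WT library and 155 of 15844 in the Ythdf2 KO library. Since the rule used the 4 genes, their levels describe the choice and were not tested.

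Rhox5 belongs to a cluster of homeobox genes expressed in testis, epididymis and ovary, and it is among the germline genes that tumour lines often transcribe. Sparc and Col3a1 encode secreted matrix proteins, and Tm4sf1 a tetraspanin-like membrane protein of mesenchymal, endothelial and many tumour cells. Ptprc encodes CD45, the surface protein used for the sort, so a cell outside the blood lineages should carry no Ptprc transcript.

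The study asks what YTHDF2, a protein that binds the m6A mark on mRNA and promotes decay of marked transcripts, does within tumour cells for escape from immunity. It has 1 library per genotype: CD45+ cells of a WT tumour sample and CD45+ cells of a Ythdf2 KO tumour sample. The labels name C57BL/6 mice for both and call the tumours knockout, whereas the series' design text writes cKO mice. It therefore remains unclear whether Ythdf2 was removed from tumour cells, from host cells or from both. The tumour's cell line, the number of mice and any pooling are not given in the sources used here. With 1 library per genotype no difference between genotypes can be tested, and every interval below is a 95% interval of counting error only.

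The Rhox5 barcodes were deep. Their median was 26649 UMIs in WT and 23898 in Ythdf2 KO, against 5670 and 5711 in all other barcodes that passed the limits (20396 and 15689). The rule counts raw UMIs, so deep barcodes enter more readily and it sets this gap in part. The libraries shared 101 barcode sequences, none of them a Rhox5 barcode. Another 7 WT and 23 Ythdf2 KO barcodes met the gene rule but exceeded the mitochondrial limit, and 5 and 17 of those had no Ptprc UMI.

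Rhox5 barcodes made up 0.0931% of WT barcodes (interval 0.0560% to 0.145%, exact binomial) and 0.978% of Ythdf2 KO barcodes (0.831% to 1.14%), a ratio of 10.5 (6.51 to 17.9). Those without a Ptprc UMI numbered 9 in WT and 89 in Ythdf2 KO, or 0.0441% and 0.562%, a ratio of 12.7 (6.42 to 28.8). The Ythdf2 KO library therefore held the higher share by either count. The cells had passed a CD45+ gate, which sets how many cells outside that gate reach a library, so the number of such cells in the tumours cannot be told apart from the purity of each sort.

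Barcodes lay on both sides of the rule's limit. With at least 10 summed UMIs instead of 5, 13 WT and 126 Ythdf2 KO barcodes remained. With UMIs of at least 2 of the genes, 5 WT and 12 Ythdf2 KO barcodes had a sum of 4 and stayed out. Just inside, 1 and 9 had a sum of 5, and 1 and 6 a sum of 6. At least 20 UMIs were found in 11 WT and 106 Ythdf2 KO members. A further 3 and 6 barcodes reached 5 UMIs through 1 gene alone and were left out.

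Barcodes without Ptprc were 47.4% of WT members (24.4% to 71.1%) and 57.4% of Ythdf2 KO members (49.2% to 65.3%). Of all other barcodes, 11.3% and 12.1% had no Ptprc UMI, at a median of 4 Ptprc UMIs. With each member thinned to 2000 UMIs, 73.7% and 75.5% of members had none. The complement genes C1qa, C1qb and C1qc, made by macrophages, were summed per barcode. They had no UMI in 7 of the 9 WT and 56 of the 89 Ythdf2 KO barcodes without Ptprc, where the sum reached at most 1 and 7 UMIs. Members with Ptprc held a median of 19 Ptprc UMIs in WT (1 to 24) and 4 in Ythdf2 KO (1 to 59). Their C1q sums had medians of 47.5 (1 to 162) and 1 (0 to 144).

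Rhox5 lies at chrX:37804842-37808876 on the plus strand (GRCm38, GENCODE M21), and it had a UMI in every barcode without Ptprc. Its counts ran from 3 over a median of 23 to 35 UMIs in WT and from 3 over 24 to 103 in Ythdf2 KO. Levels below are counts per 1000000 UMIs (CPM) summed over the barcodes of a group. The Rhox5 level was 886 CPM in WT (764 to 1021) and 1020 CPM in Ythdf2 KO (979 to 1061), and the barcodes of the libraries overlapped (315 to 1458 and 250 to 3195 CPM). Rhox5 UMIs occurred in 2.63% and 3.97% of all other barcodes, at 3.53 and 5.98 CPM. Rhox6 and Rhox9, which lie in the same cluster, had no UMI in any Rhox5 barcode.

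Tm4sf1 (chr3:57285611-57301988, minus strand) had a UMI in 8 of 9 WT and 79 of 89 Ythdf2 KO barcodes without Ptprc. Sparc (chr11:55394500-55423183, minus strand) was found in 6 and 72, and Col3a1 (chr1:45311538-45349706, plus strand), a fibrillar collagen, in 3 and 52. Rhox5 had the highest count of the rule genes in all 9 WT and 79 of the 89 Ythdf2 KO barcodes, Col3a1 led in 9 and Tm4sf1 in 1. Over all members, with or without Ptprc, Rhox5 led in 14 of 19 and 124 of 155 and Col3a1 in 4 and 24. All of these counts are fixed in part by the rule. Levels of the other rule genes in WT and Ythdf2 KO were 186 and 281 CPM for Tm4sf1, 83.9 and 213 CPM for Sparc and 83.9 and 337 CPM for Col3a1.

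**Figure D1:**
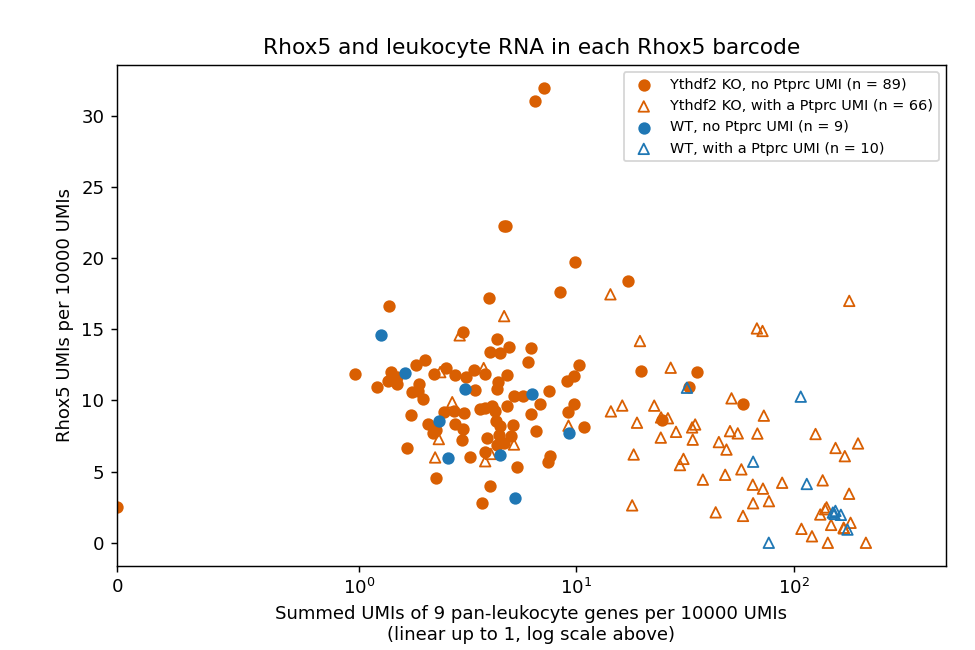
Each point is a Rhox5 barcode, with the summed UMIs of 9 pan-leukocyte genes per 10000 UMIs on the x axis (linear up to 1, logarithmic above) and Rhox5 UMIs per 10000 on the y axis. Barcodes without Ptprc (filled) have leukocyte sums of at most 58.3, and those with Ptprc (open triangles) spread from the same low range up to 214.7.

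Markers of blood cells were low in the barcodes without Ptprc. The 9 pan-leukocyte genes other than Ptprc summed to 340 CPM in WT and 453 CPM in Ythdf2 KO barcodes without Ptprc, against 14414 and 15630 CPM in all other barcodes. Of 27 genes of leukocyte lineages with at least 100 CPM in all other barcodes, 24 in WT and 25 in Ythdf2 KO stood at under 5% of that level, with a median of 1.44% and 1.58%. Arhgdib stood apart at 24.3% and 33.7%. Next came Trbc2, a T cell receptor constant segment, at 7.81% in WT, and Cd68, a lysosomal protein, at 5.37% in Ythdf2 KO. The WT value of Trbc2 rests on few UMIs, since all 10 T cell genes together had 4 there. In Ythdf2 KO Trbc2 was the lowest of the 27 genes, at 0.744%. The share of all genes under 5% was not computed. Of 1389 genes compared below, 15.8% were at least 4-fold lower in both libraries. The barcodes were split on Ptprc, itself a leukocyte gene, so low leukocyte RNA follows in part from that choice.

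Xist, the noncoding RNA of the inactive X chromosome, was as low as the leukocyte genes. All other barcodes held 795 CPM in WT and 721 CPM in Ythdf2 KO, and barcodes without Ptprc 14 (2.88 to 40.9) and 7.67 CPM (4.55 to 12.1), which is 1.76% and 1.06% of those levels. A Xist UMI was seen in 3 of 9 and 10 of 89 barcodes. The Y-linked gene Ddx3y had no UMI in members or in other barcodes of either library.

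The label given to these barcodes, tumour or stromal type, was checked against defining markers. Fibroblasts are known by fibrillar collagen I, yet Col1a1 stood at 4.66 and 5.54 CPM, Col1a2 at 0 and 0.426 CPM, and Postn had no UMI. Of 89 Ythdf2 KO barcodes, 5 had a Col1a1 UMI and 1 a Col1a2 UMI. Other genes of the fibroblast list were present: Col5a1 at 69.9 and 98.9 CPM, Col6a1 at 60.6 and 169 CPM and Col6a2 at 28.0 and 89.9 CPM. The whole list of 15 genes summed to 191 and 615 CPM, against 226 and 192 CPM in all other barcodes. Dcn (a small matrix proteoglycan) and Pdgfra (a growth factor receptor of mesenchymal cells) had no UMI in the 9 WT barcodes, which allows a share of up to 33.3% of such barcodes with a UMI and sets no limit on cells that express the genes. In Ythdf2 KO they were found in 31 and 35 of 89 barcodes, at 144 and 44.3 CPM.

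Endothelial and mural markers were low. Pecam1, an endothelial adhesion protein, stood at 0 and 1.28 CPM, Cdh5 at 9.32 and 11.9 CPM, and Rgs5 and Acta2, markers of pericytes and smooth muscle, had no UMI. The 12 epithelial markers summed to 0 and 0.852 CPM, the latter from Epcam alone, and no keratin of the list had a UMI. The 7 melanocytic markers summed to 4.66 and 9.38 CPM, with Mlana at 0. Fibroblast type is thus not borne out by collagen I, although other genes of the fibroblast list were present. Neither epithelial nor melanocytic type is borne out by these markers. Since no label gives the tumour's line, tumour origin was not tested either, and the barcodes are called here by their leading gene.

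**Figure D2:**
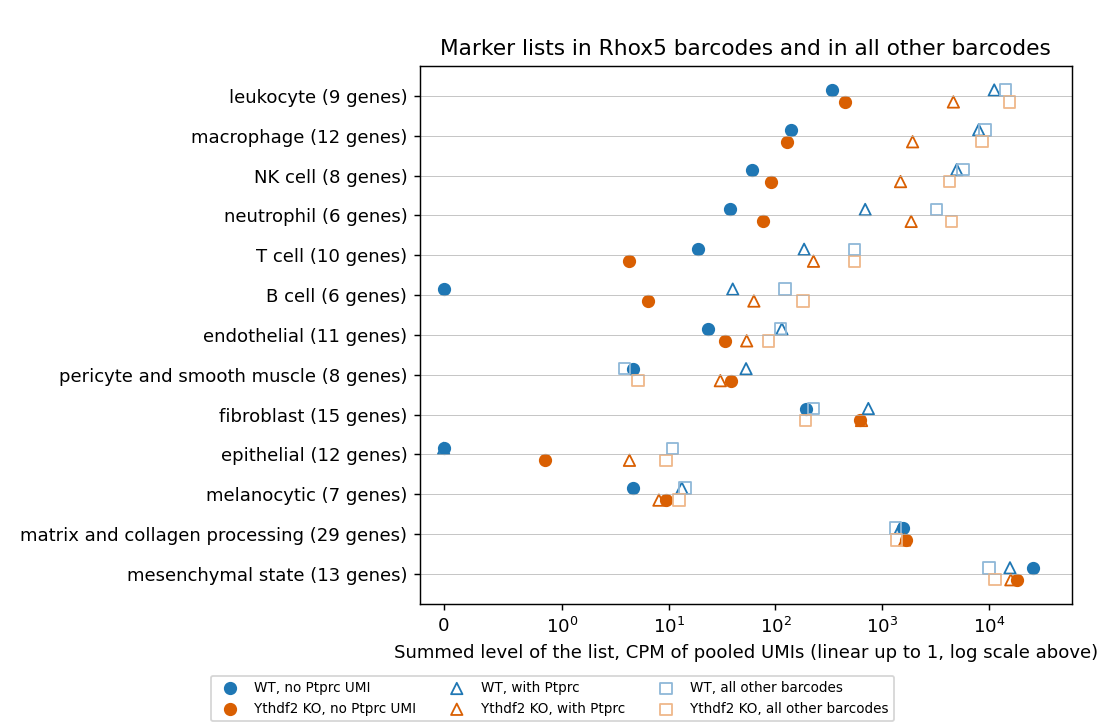
Summed CPM of each marker list (x axis, linear up to 1 and logarithmic above) in Rhox5 barcodes without Ptprc (filled circles), Rhox5 barcodes with Ptprc (triangles) and all other barcodes (squares), for WT (blue) and Ythdf2 KO (orange). The leukocyte list is at 340 and 453 CPM in barcodes without Ptprc and at 14414 and 15630 CPM in all others, and the epithelial list is at 0 and 0.852 CPM.

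Among transcription factors of the mesenchymal list, Twist1, Twist2, Snai1 and Prrx1 were higher than in all other barcodes of both libraries, and Zeb1 and Zeb2 were lower. Twist1 stood at 74.6 CPM in WT and 51.6 CPM in Ythdf2 KO, against 0.262 and 0.295 CPM in all other barcodes. Snai1 was at 55.9 and 90.8 CPM (2.06 and 2.94 CPM in others), Prrx1 at 42 and 54.1 CPM (0.351 and 0.614 CPM). Zeb2 was at 83.9 and 113 CPM against 469 and 516 CPM, at least 4-fold lower in both libraries, and Zeb1 at 4.66 and 5.54 against 30.3 and 23.5 CPM. Snai2 was nearly undetected, at 0 and 5.11 CPM. S100a6, a calcium-binding protein of many proliferating and tumour cells, was abundant, at 17003 and 10769 CPM against 3681 and 4202 CPM. Vim, the intermediate filament of mesenchymal cells and leukocytes alike, was close to the others, at 1590 and 1729 against 1706 and 1999 CPM. Afp, the fetal serum protein alpha-fetoprotein, was found in 8 of 9 and 64 of 89 barcodes, at 74.6 and 112 CPM against 1.97 and 1.87 CPM, while the imprinted genes H19, Igf2 and Dlk1 had no UMI.

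The 20 genes outside the rule with the highest ratio to all other barcodes are named next, among those with at least 100 CPM and a UMI in at least 25% of the barcodes without Ptprc in each library. Shisal2b, a Shisa-like membrane protein, had 755 CPM in WT and 947 CPM in Ythdf2 KO, against 4.46 and 6.34 CPM in all other barcodes. It had a UMI in all 9 WT and 80 of 89 Ythdf2 KO barcodes. Several of the 20 encode proteins of collagen processing or the matrix. Pcolce, an enhancer of procollagen cleavage, stood at 364 and 352 CPM (0.584 and 1.21 CPM in others), Serpinh1, the collagen chaperone HSP47, at 261 and 292 CPM (0.721 and 1.06 CPM), Ccn1, a matricellular protein, at 256 and 134 CPM (0.107 and 0.210 CPM), and Aebp1 at 135 and 260 CPM (0.614 and 1.01 CPM).

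Others belong to the contractile skeleton and to caveolae, the small pits of the plasma membrane. Cald1 (caldesmon) stood at 359 and 575 CPM against 2.75 and 4.69 CPM, and Tpm2 (tropomyosin) at 117 and 147 CPM against 1.25 and 1.48 CPM. Cav1 was at 154 and 137 CPM (2.26 and 2.27 CPM in others) and Cavin3 at 149 and 117 CPM (0.721 and 1.04 CPM). These genes were high in both libraries.

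Secreted and signalling proteins were Wfdc2 (345 and 270 CPM against 0.715 and 1.17 CPM), a protease inhibitor-like protein of epithelia and carcinomas, and Prl2c2 (145 and 101 CPM against 0.286 and 0.311 CPM), the growth-associated proliferin, whose near-identical gene copies make its count uncertain. Il1rl1, the receptor of interleukin 33, had 214 and 259 CPM against 2.11 and 2.30 CPM, with a UMI in 6 of 9 and 63 of 89 barcodes. X-linked members were Maged1 (117 and 123 CPM) and Fmr1nb (149 and 117 CPM), the latter a testis gene found in all 9 WT and 76 of 89 Ythdf2 KO barcodes. The remaining genes were Mt2, a metallothionein (1068 and 740 CPM against 53.4 and 35.6 CPM), Map1b, Fkbp11, Cda, Gm49504 and Gm4316. Other testis genes were not raised as a set. A list of 15 germline and cancer-testis genes, without Rhox5 and Fmr1nb, summed to 18.6 and 15.3 CPM. All other barcodes held 17.1 and 16.3 CPM of it, and 8 of the 15 genes had no UMI in the barcodes without Ptprc.

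Summed over the 20 genes, WT barcodes without Ptprc ran from 16.9 over a median of 55.9 to 109 UMIs per 10000, and Ythdf2 KO ones from 14.6 over 50.3 to 105. The 99th percentile of all other barcodes was 11.8 and 15.2. The ranges of the libraries overlapped. Since the 20 genes were picked on these barcodes, this separation is a description.

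**Figure D3:**
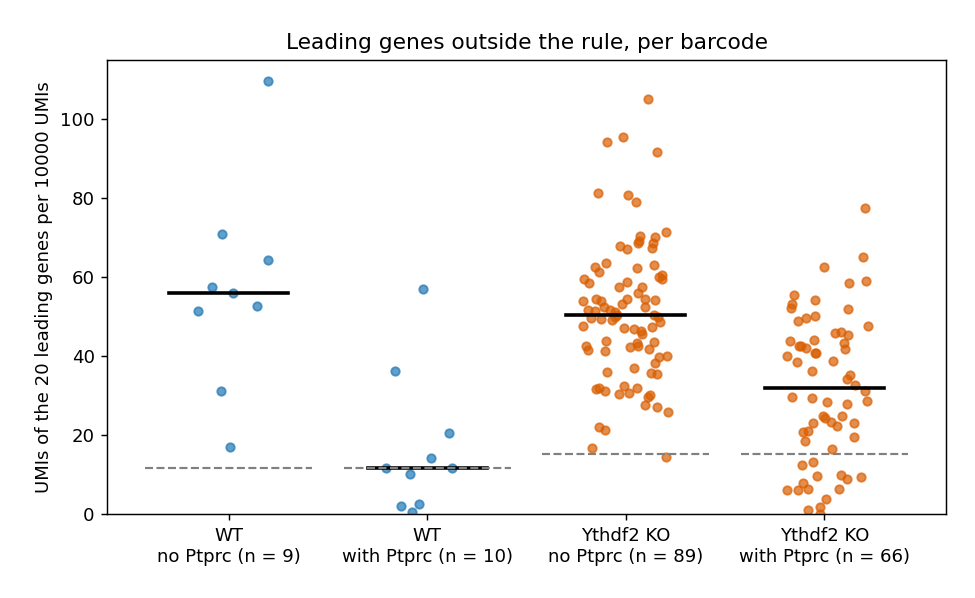
UMIs of the 20 leading genes per 10000 UMIs (y axis) in each Rhox5 barcode by library and presence of a Ptprc UMI, with the median as a black bar and the 99th percentile of all other barcodes of the library as a dashed line. Barcodes without Ptprc have medians of 55.9 and 50.3, those with Ptprc 11.7 and 31.9.

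Over the 1389 genes whose mean over barcodes without Ptprc and all other barcodes reached 100 CPM, 53 (3.82%) were at least 4-fold higher in the barcodes without Ptprc in both libraries and 219 (15.8%) at least 4-fold lower. The rule genes and Ptprc were left out of this count. The median fold over these genes was 1.05 in WT and 1.15 in Ythdf2 KO. Among the 53 were Npm1 (nucleophosmin, a nucleolar chaperone of ribosome assembly) at 3389 and 3171 CPM against 680 and 618 CPM, Hspd1 (a mitochondrial chaperonin) at 541 and 888 against 120 and 101 CPM, and Phgdh (the enzyme that opens serine synthesis) at 191 and 316 against 29.1 and 25.6 CPM. Cd63, a tetraspanin of late endosomes, stood at 1231 and 1246 against 176 and 146 CPM. These 4 were picked from the 53 after their values were seen.

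In the list of 29 matrix and collagen processing genes outside the rule, 3 were compared. Of these, 2 were among the 53, Serpinh1 and Timp1, beside 3.82% higher over all genes compared. Pcolce, named above, was also among the 53 but is not on that list. The third gene compared, Thbs1, was at least 4-fold lower (14 and 15.3 against 1067 and 1125 CPM). The other 26 genes of that list were under the limit of 100 CPM. Timp1, an inhibitor of matrix proteases, stood at 252 and 329 against 30.8 and 19.8 CPM. Of 6 mesenchymal genes compared, 0 were higher and 1, Zeb2, lower at 4-fold, beside 3.82% higher and 15.8% lower over all genes compared.

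Of 5 cell cycle genes compared, 0 were at least 4-fold higher or lower, beside 3.82% higher and 15.8% lower over all genes compared. The 5 had a median fold of 2.06 in WT and 2.15 in Ythdf2 KO. The whole list of 20 genes summed to 2616 and 2676 CPM against 1053 and 977 CPM in all other barcodes. Mki67, a protein of cycling cells, had a UMI in 7 of 9 and 41 of 89 barcodes. The 12 glycolysis genes compared had a median fold of 1.51 and 1.42, none at 4-fold, beside the same shares over all genes compared. Ldha, lactate dehydrogenase, stood at 1147 and 1229 against 744 and 656 CPM. The members of these lists differ in depth from all other barcodes, whose part in the result was not tested.

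Tumour cells are seen by T cells through MHC class I, which presents peptides at the surface, and interferon raises that machinery. Of 12 class I genes compared, 0 were at least 4-fold higher and 2 lower, a share near the 15.8% of all genes compared, with a median fold of 0.451 in WT and 0.528 in Ythdf2 KO. H2-K1, a classical heavy chain, stood at 1100 and 1251 CPM against 2319 and 2021 CPM in all other barcodes, and had a UMI in all 9 and all 89 barcodes without Ptprc. B2m, the light chain, stood at 1636 and 1686 against 4185 and 3929 CPM.

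The nonclassical heavy chains behaved otherwise. H2-T23 (Qa-1, a ligand of the NK receptor NKG2A) stood at 4.66 CPM in WT (0.118 to 26.0) and 4.26 CPM in Ythdf2 KO (2.04 to 7.84) against 398 and 382 CPM, or 1.17% and 1.11% of the others. H2-Q7 (Qa-2) stood at 14 and 4.26 CPM against 444 and 373 CPM, or 3.15% and 1.14%. Those shares lie in the range of the leukocyte genes above, while H2-K1 was at 47.5% and 61.9%. How the authors' counting treated reads shared by similar heavy chains was not checked, so these levels are uncertain.

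Of 15 interferon response genes compared, 0 were at least 4-fold higher and 1 lower (15.8% lower over all genes compared), with a median fold of 0.392 and 0.347. Isg15, a ubiquitin-like modifier, stood at 895 and 411 against 1637 and 1186 CPM. Bst2, or tetherin, was on the other side at 1720 and 861 against 780 and 703 CPM. Cd274, which encodes the checkpoint ligand PD-L1, was at 42 and 14.9 CPM against 183 and 213 CPM, with a UMI in 3 of 9 and 17 of 89 barcodes.

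Among 8 chemokines and growth factors compared, 0 were higher and 5 lower, beside 15.8% lower over all genes compared. Ccl2, which draws monocytes, stood at 135 and 289 against 1284 and 1644 CPM, and Ccl5, which draws T cells, at 32.6 and 50.3 against 1204 and 998 CPM. Mif, a cytokine made by many cell types, was above the others at 2476 and 1872 against 672 and 565 CPM. Cxcl1, a neutrophil attractant, was at 55.9 and 165 against 14 and 20.4 CPM and lay under the limit for comparison. Cx3cl1 had no UMI in WT and 4.69 CPM in Ythdf2 KO.

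**Figure D4:**
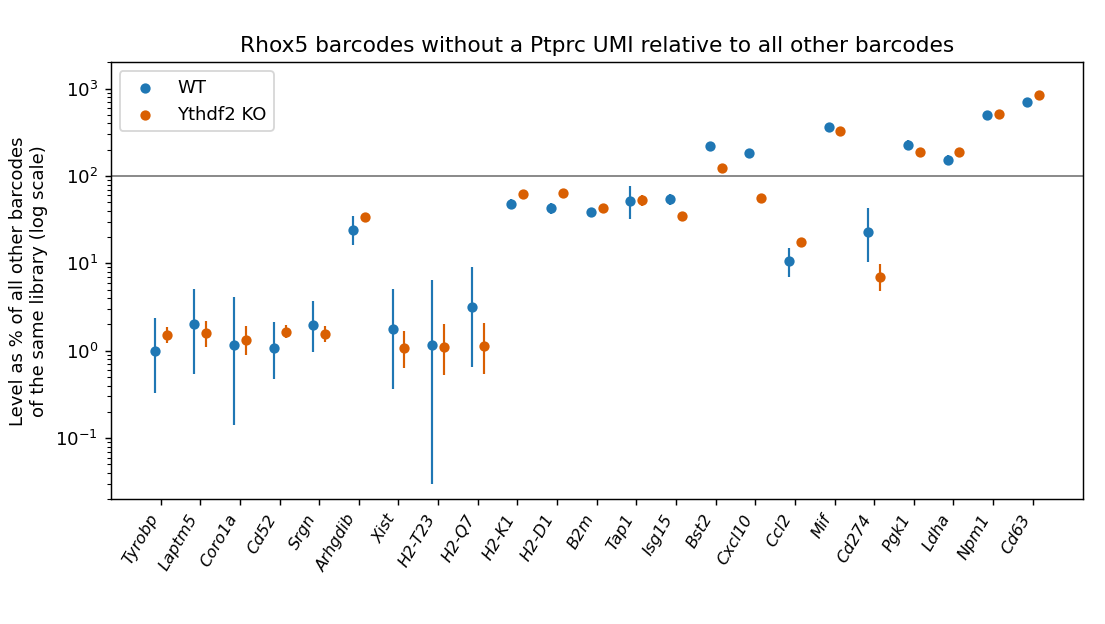
Level of each gene in Rhox5 barcodes without Ptprc as a percentage of all other barcodes of the same library (y axis, logarithmic, 100% drawn as a line) for WT (blue) and Ythdf2 KO (orange), with vertical lines for the exact Poisson interval of the UMIs in the Rhox5 barcodes. The leukocyte genes other than Arhgdib (24.3% and 33.7%), Xist, H2-T23 and H2-Q7 lie near 1% to 3%, whereas H2-K1 is at 47.5% and 61.9% and B2m at 39.1% and 42.9%.

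The libraries were next set side by side within the barcodes without Ptprc. Ythdf2 (chr4:132184912-132212303, minus strand), the gene named in the genotype, had 13 UMIs or 60.6 CPM in WT (32.3 to 104) and 132 UMIs or 56.3 CPM in Ythdf2 KO (47.1 to 66.7). The ratio was 0.928 (0.524 to 1.79), and 0.598 (0.319 to 1.24) with a mitochondrial limit of 5%. All other barcodes held 48.4 and 45.9 CPM. The deleted stretch of the gene is not given in the sources used here, so a UMI read from another part of the transcript would not check the genotype. The label Ythdf2 KO is thus neither backed nor contradicted by these counts.

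Only 9 WT barcodes stood against 89, so single WT barcodes weigh heavily in the sums. The ratios below are of genes picked for lying apart, and their intervals take no account of the spread between barcodes or between libraries. Fn1, the matrix protein fibronectin, stood at 88.6 CPM in WT (53.3 to 138) and 795 CPM in Ythdf2 KO (760 to 832), a ratio of 8.98 (5.73 to 14.9), with barcode ranges of 0 to 317 and 0 to 4793 CPM that overlapped. Spp1, or osteopontin, stood at 1054 and 3342 CPM (barcode medians 308 and 1798 CPM), a ratio of 3.17 (2.78 to 3.64). Fth1, the ferritin heavy chain, stood at 3562 and 9425 CPM (barcode medians 2409 and 7584 CPM), a ratio of 2.65 (2.46 to 2.85).

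In the other direction, Cxcl10, an interferon-induced chemokine, stood at 1473 CPM in WT and 544 CPM in Ythdf2 KO, a ratio of 0.369 (0.326 to 0.419). The 9 WT barcodes held 0, 0, 0, 528, 771, 1141, 1229, 6456 and 7361 CPM, and the 89 Ythdf2 KO ones 0 to 5349 CPM with a median of 81.0. The WT sum rests largely on a pair of barcodes above the Ythdf2 KO range. Bst2 stood at 1720 and 861 CPM (0.5, 0.448 to 0.561), with WT barcodes at 1030 to 2416 and Ythdf2 KO ones at 0 to 3645 CPM. Car9, a carbonic anhydrase induced by low oxygen, stood at 159 and 11.5 CPM, with UMIs in 4 of 9 and 12 of 89 barcodes. Mki67 stood at 256 and 86.1 CPM, and the highest WT barcode alone held 3786 CPM at 9509 UMIs. Gm42418, a locus that overlaps ribosomal RNA sequence, stood at 11343 and 2285 CPM. These genes were named after their values were seen, and how far they differ between genotypes was not tested.

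Summed lists were compared in the same way. The ratio of Ythdf2 KO to WT sums was 1.04 for MHC class I (0.985 to 1.11), 1.02 for the cell cycle (0.938 to 1.12), 0.928 for m6A machinery (0.819 to 1.06) and 0.873 for glycolysis (0.836 to 0.912). It was 0.624 for the interferon response (0.583 to 0.669) and 3.22 for the fibroblast list (2.36 to 4.50). Per barcode, the interferon list had medians of 34.8 UMIs per 10000 in WT (18.5 to 144) and 18.8 in Ythdf2 KO (3.49 to 163), and the class I list 55.2 (24.6 to 81.2) and 53.0 (17.6 to 196). The barcodes of the libraries overlapped in both lists.

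Rhox5 barcodes with a Ptprc UMI carried leukocyte RNA to very different extents. The pan-leukocyte list exceeded the highest barcode without Ptprc (58.3 UMIs per 10000) in 9 of 10 WT and 28 of 66 Ythdf2 KO barcodes, beside 94.7% and 95.1% of all other barcodes. Macrophage genes exceeded the highest barcode without Ptprc (24.3 UMIs per 10000) in 10 of 10 WT and 23 of 66 Ythdf2 KO barcodes, beside 72.0% and 71.6% of all other barcodes. NK cell genes did so in 5 and 11 (limit 24.1), beside 27.0% and 21.4% of all other barcodes. Neutrophil genes did so in 1 and 15 (15.7), beside 9.15% and 17.2%. T cell genes did so in 4 and 16 (1.25) and B cell genes in 2 and 9 (0.749). The limits for T and B cell genes are low, and 36.1% and 29.6% of all other barcodes exceeded the former and 21.3% and 24.4% the latter. At least 2 of these lineages were exceeded in 7 WT and 19 Ythdf2 KO barcodes, beside 48.7% of all other barcodes in either library. Macrophage and NK cell limits were both exceeded in 5 and 5, and that share over all other barcodes was not computed. No doublet caller was applied, so droplets with more than 1 cell may remain, and their part in these counts was not tested.

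In 18 of the 66 Ythdf2 KO barcodes with Ptprc, and in none of the 10 in WT, no lineage was above that limit. Of all other barcodes, 96.5% in WT and 96.4% in Ythdf2 KO were above it for at least 1 lineage. The median depth of the 18 was 37713 UMIs. They held a median of 8.26 Rhox5 UMIs and 43.3 UMIs of the 20 leading genes per 10000, against 5.81 and 23.8 in the other Ythdf2 KO barcodes with Ptprc. In Ythdf2 KO, 26 of the barcodes with Ptprc had only 1 or 2 Ptprc UMIs, and in WT 3. Of all barcodes with Ptprc, 4 of 10 in WT and 51 of 66 in Ythdf2 KO exceeded the 99th percentile of the 20-gene sum in all other barcodes.

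A few members entered with little Rhox5. It had at most 2 UMIs in 3 WT and 8 Ythdf2 KO barcodes, all of them with Ptprc, and no UMI in 1 WT and 2 Ythdf2 KO barcodes of these. The WT barcode without Rhox5, of 36200 UMIs, had 23 Col3a1 UMIs, 21 Ptprc UMIs and a C1q sum of 41. A Ythdf2 KO barcode of 9366 UMIs held 2 Rhox5, 28 Col3a1 and 11 Sparc UMIs beside 412 neutrophil-gene UMIs per 10000. Rhox5 and Col3a1 are both rule genes, and the rule admits a barcode that lacks either of them. Such members therefore follow in part from the choice, and whether collagen and Rhox5 occur together was not tested.

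Col3a1 marked a graded difference among the Ythdf2 KO barcodes without Ptprc. The 67 with at least 10000 UMIs were thinned to 10000 UMIs each, leaving out 22 shallower ones. Only genes with a UMI in at least 30% of barcodes, 3159 in all, were ranked by Spearman's correlation with Col3a1. All 67 come from 1 library and share its processing, so the coefficients are descriptions of that library. From the 5th to the 95th percentile of genes they ran from -0.314 to 0.311. Col3a1 was chosen as the reference after 8 genes had been looked at in this way.

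Among the ranked genes, those most like Col3a1 were Col6a1 (0.774), Spp1 (0.661) and Fn1 (0.613), all of the matrix. Igfbp4, an IGF-binding protein (0.592), Ecm1, Egr1, Tceal9 and Col6a3 came next. B2m (0.536), H2-K1 (0.534) and H2-D1 (0.519) followed, and Cd81 completed the 12 highest. Between 29 barcodes without Col3a1 and 21 with at least 3 of 10000 UMIs, medians were 0 and 4 UMIs for Col6a1, 1 and 10 for Fn1, 8 and 61 for Spp1, 11 and 23 for B2m and 9 and 19 for H2-K1. Col6a1 had a UMI in 2 of the 29 and 20 of the 21. Ranges of the groups overlapped for each of these genes. Col6a2, which was not among the ranked genes, had a coefficient of 0.666, with a UMI in 0 of the 29 and 14 of the 21.

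The genes least like Col3a1 were Naa50, an acetyltransferase (-0.567), Pa2g4 (-0.550), Eef1g, a translation elongation factor (-0.543), and Npm1 (-0.541), then Rpl14, Gtpbp4, Wfdc2, Hsp90ab1, Ran, Ybx1, Rps2 and Odc1. Medians without Col3a1 and with at least 3 UMIs were 39 and 18 for Npm1, 4 and 1 for Pa2g4 and 3 and 0 for Wfdc2. Rhox5 had medians of 10 and 9 UMIs (-0.146), which the rule affects, since a barcode without Col3a1 had to enter through the other rule genes. S100a6 had medians of 112 and 90 (-0.234).

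Other measures moved along the same range. The fibroblast list, which holds Col6a1, had a median of 1.81 UMIs per 10000 (0 to 8.24) without Col3a1. With at least 3 Col3a1 UMIs it was 13.7 (1.90 to 31.2). Dcn had a UMI in 4 of the 29 and 13 of the 21 barcodes of these groups. Median depth before thinning was 37422 UMIs without Col3a1 and 25408 with at least 3 UMIs (-0.204 for depth with Col3a1), and mitochondrial shares were 3.53% and 3.93%. The leukocyte list had medians of 3.13 (1.21 to 10.3) and 3.99 (1.51 to 19.8) and the macrophage list 0.739 (0 to 3.24) and 1.14 (0 to 11.3) UMIs per 10000, and their part in the result was not tested. Without Col3a1 and with at least 3 UMIs, medians of UMIs per 10000 were 15.4 and 30.4 for the interferon list, 40.1 and 80.3 for the MHC class I list and 27.5 and 12.6 for the cell cycle list. Among the 42 barcodes without a C1q UMI the coefficients were 0.691 for Col6a1, 0.506 for Spp1, 0.497 for H2-K1 and -0.496 for Npm1, and Egr1, an early response gene, had 0.329 (0.556 in all 67). Among 54 Ythdf2 KO members with Ptprc, which the ranking did not use, they were 0.620, 0.492, 0.483 and -0.355. These 54 come from the same library and the same rule, which uses Col3a1, so they are not an independent check. B2m and H2-D1 were weaker there, at 0.318 and 0.177, as were Egr1 at 0.166 and Wfdc2 at -0.289 (-0.514 in the 67).

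**Figure D5:**
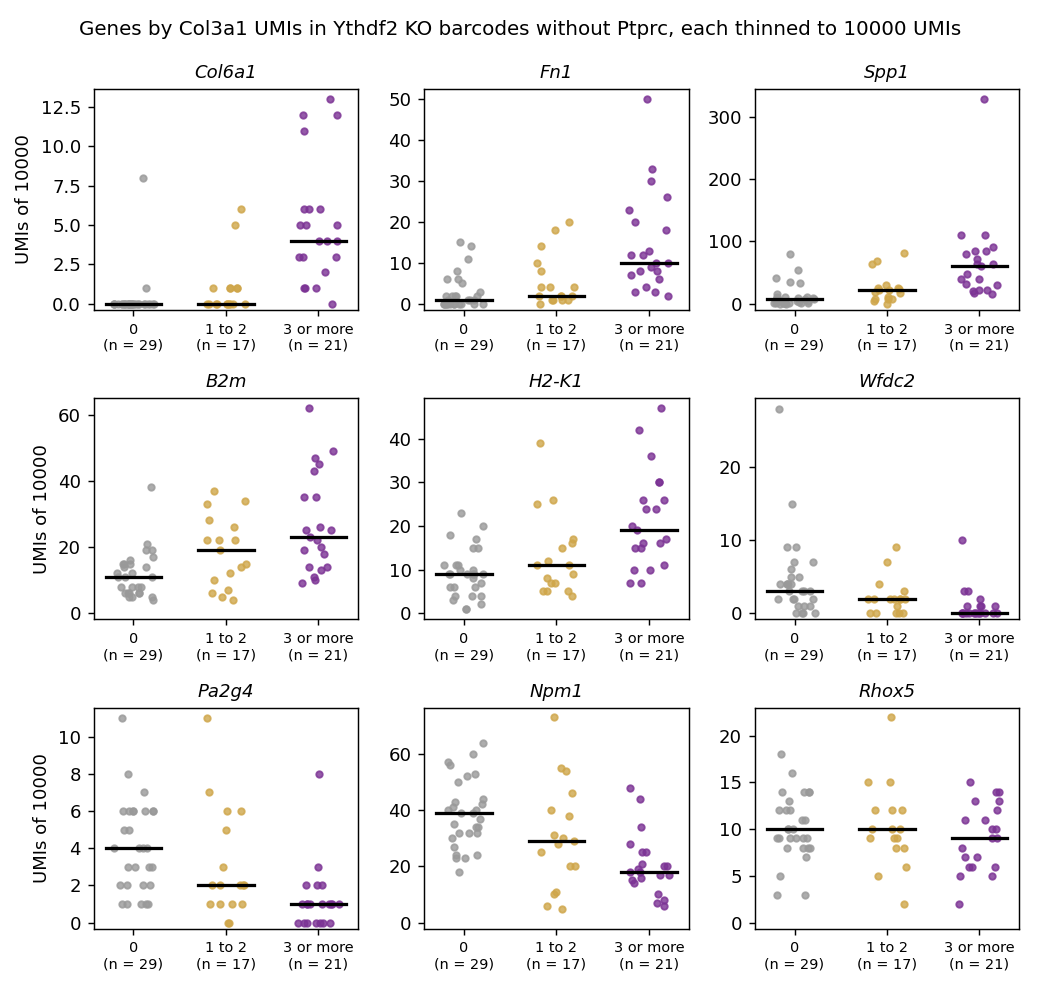
UMIs of 9 genes (y axes) in each of 67 Ythdf2 KO barcodes without Ptprc, thinned to 10000 UMIs, in columns of barcodes with 0, 1 to 2, or 3 or more Col3a1 UMIs, with medians as bars. Median Spp1 is 8 without Col3a1 and 61 at 3 or more, median Npm1 39 and 18, and median Rhox5 10 and 9.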

How the data were processed

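The deposited matrices, 1 per genotype, hold raw UMI counts per gene and barcode as whole numbers with no normalization. Per the submitters' processing notes the tools were Cell Ranger (5.0.1) and Seurat (4.0.4) with build mm10. The matrix header gives Cell Ranger 6.1.1 instead, and which is right was not settled. The matrices list 32285 genes. Coordinates are from GENCODE M21. Members, gene lists and rules were chosen with earlier results of these data known.

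Values were computed with Python 3.11.15, numpy 2.4.6, scipy 1.17.1 and pandas 2.3.3, drawn with matplotlib 3.10.9, and the scripts were tested on simulated data. Counts were summed per group and divided by total UMIs (CPM). Intervals are exact (Clopper-Pearson for shares, Poisson for counts, conditional binomial for ratios) and cover counting error. No doublet caller was run. Named genes are the rule genes, Ptprc, C1q, Ythdf2, examples of the 29 lists (highest levels and extreme ratios) and the 20 leading genes.

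A planned count of genes 2-fold apart between libraries, with the naming of its extremes, was not made because WT held fewer than 10 barcodes without Ptprc. Values of single genes are given for the libraries instead, with no count over all genes beside them. The form of the 100 CPM limit (a mean over members and other barcodes), the leukocyte levels, the lineage counts, the Col3a1 ranking and genes named apart from the lists were chosen after seeing the data. Alternatives covered the limits of the rule, Ptprc, C1q, weighting and low values.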

Additional observations from a re-analysis of the deposited data

How the results depend on the processing

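The share of Ythdf2 KO barcodes that are members was 0.743% with a mitochondrial limit of 5%, 0.795% with at least 10 summed UMIs and 0.770% with at least 3 of the 4 genes, and within the counting interval of the reported value under the other 3 settings. The WT share ranged from 0.0588% to 0.126% over 6 settings. Members without Ptprc were 73.7% in WT and 75.5% in Ythdf2 KO after thinning to 2000 UMIs, the step that leaves fewer Ptprc UMIs to find. With no limit on low values, 1283 of 9774 genes were at least 4-fold higher, since genes with few UMIs then enter, and the lowest count over all settings was 51. The Ythdf2 ratio ranged from 0.598 (mitochondrial limit of 5%) to 1.06 (each barcode weighted equally). The coefficients with Col3a1 (settings added after seeing the data) kept their sign for the 12 genes followed. No paired analysis was possible because each genotype is 1 library and the labels carry no replicate numbers. With 9 WT barcodes without Ptprc, a gene without a UMI could still have one in up to 33.3% of such barcodes.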

Other observations

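Rhox5 RNA outside the chosen barcodes differed less between the libraries than the share of chosen barcodes did. Rhox5 barcodes were 10.5 times as frequent in Ythdf2 KO as in WT, yet Rhox5 in all other barcodes stood at 3.53 CPM in WT and 5.98 CPM in Ythdf2 KO, a ratio of 1.69 (1.52 to 1.89, counting error only). Among other barcodes with at most 1 UMI of the rule genes it was 2.76 and 3.91 CPM, a ratio of 1.42 (1.24 to 1.61). The leading genes other than Mt2 had ratios of 1.34 (1.28 to 1.40) and 1.25 (1.19 to 1.31) in these sets of barcodes. With Mt2, which other cells also express, the ratios of all 20 genes were 0.870 (0.846 to 0.894) and 0.831 (0.808 to 0.855), in the other direction. Of the Rhox5 UMIs in barcodes that passed the limits, members held 31.4% in WT (272 UMIs, against 593 in other barcodes). In Ythdf2 KO they held 83.5% (3890 against 769). Rhox5 is a rule gene and barcodes rich in it became members, so the rule fixes these Rhox5 levels and shares in part. What else sets the level in other barcodes was not tested.

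Mitochondrial transcripts were higher in the Rhox5 barcodes without Ptprc, though the rule capped their share. mt-Nd1, a subunit of respiratory complex I, stood at 3912 CPM in WT and 2560 CPM in Ythdf2 KO against 668 and 593 CPM in all other barcodes, and mt-Co1, a subunit of complex IV, at 9278 and 7011 against 3530 and 3283 CPM. Their mitochondrial shares had medians of 4.95% and 3.67%, against 1.30% and 1.28% in the other barcodes.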
